A study of Mus musculus with 11 samples.

Results

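The cell-cycle genes described here are 44 of 45 listed symbols, 19 for DNA replication and 25 for mitosis, chosen by name and by their presence in both deposited CPM tables. The other symbol, Fen1, was in neither CPM table: it had 1 to 4 counts per library, and its exons overlap those of Tmem258 and Gm10143 on the opposite strand. All 44 members passed the filter on low counts, among 10910 genes tested in one table and 12366 in the other. RNA was sequenced from FACS-purified CD24-TCRb- mouse thymocytes, a small fraction of the thymus that lacks most developing T cells. At postnatal day 0 the groups were Bcl11b D/N440K, Bcl11b +/N440K and Bcl11b +/+, with 2 libraries each. Bcl11b is a zinc finger factor needed for T cell commitment, N440K changes a residue of that protein, and no label explains D. At postnatal day 7 the groups were Tcf7 F/F:Vav1-Cre (3 libraries), a floxed gene with a Cre driven from Vav1, which is active in blood cells, and Tcf7 +/+ (2 libraries). Nothing states that replicates came from separate animals, so p-values measure only the spread between these libraries. Total RNA was copied by a modified RamDA-seq protocol primed with both oligo(dT) and not-so-random primers, then cut by Tn5 and amplified.

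DNA replication starts from origins on which Cdc6 and Cdt1 load the MCM helicase, which Cdc45 and GINS then activate. Mitosis is run by cyclin-dependent kinase 1 with its cyclins, by the Aurora and Polo kinases, by spindle motors, and by the anaphase-promoting complex that ends it. In many animal cells E2F factors raise replication genes at the entry into S phase, while the MuvB complex with B-Myb and FoxM1 raises mitosis genes later, through CHR and CCAAT elements in their promoters. In the thymus, early progenitors and cells that have just passed selection for the pre-T cell receptor divide rapidly, while most double-positive cells are small and at rest. In RNA of a whole cell sample, fewer dividing cells and less RNA per dividing cell cannot be told apart.

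Each library held 999381 to 1842717 counts over 17544 to 20480 genes. The 6 T and innate lymphoid markers were all seen in every library and summed to 2084 to 3479 CPM, but single markers differed between groups and are given with the other cell markers. Bcl11b itself had 152 and 204 CPM in D/N440K, 185 and 225 CPM in +/N440K, and 641 and 506 CPM in +/+, and was lower in both mutant groups (edgeR log2 fold changes -1.70 ± 0.114 and -1.48 ± 0.11 SE). Tcf7 had 847, 658 and 694 CPM in libraries labelled F/F:Vav1-Cre, against 552 and 594 CPM in Tcf7 +/+ (log2 fold change 0.35 ± 0.125 SE, edgeR adjusted p = 0.0497). This count is over all exons of the gene and does not show a deleted exon, so the label was not checked by it, and it runs higher where the label names a deletion. The 2 Tcf7 +/+ libraries stood apart from each other more than any other replicate pair: over genes with at least 20 counts, chi-square per degree of freedom was 4.95 between them and 1.13 to 2.15 in the other pairs.

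Members were expressed at moderate levels. By CPM per kilobase of the longest annotated transcript, a scale that allows genes to be compared, Rrm2 of ribonucleotide reductase was the highest member in all 3 Bcl11b groups, at 172 in D/N440K, 182 in +/N440K and 165 in +/+. Mcm5 followed in D/N440K and +/N440K, at 126 and 124, and Mcm2 in +/+, at 131. In libraries with the label F/F:Vav1-Cre, Rrm2 and Mcm5 stood at 70.6 and 70.3 CPM per kilobase. In Tcf7 +/+ the order differed, with Top2a at 97.6, Mcm5 at 88.1 and Rrm2 at 84.4. Ccnb1 and Gins2 were the lowest, at 5.68 and 7.28 CPM per kilobase in D/N440K. Their raw counts were 12 to 59 and 14 to 33 per library, so both carry wide errors.

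**Figure D1:**
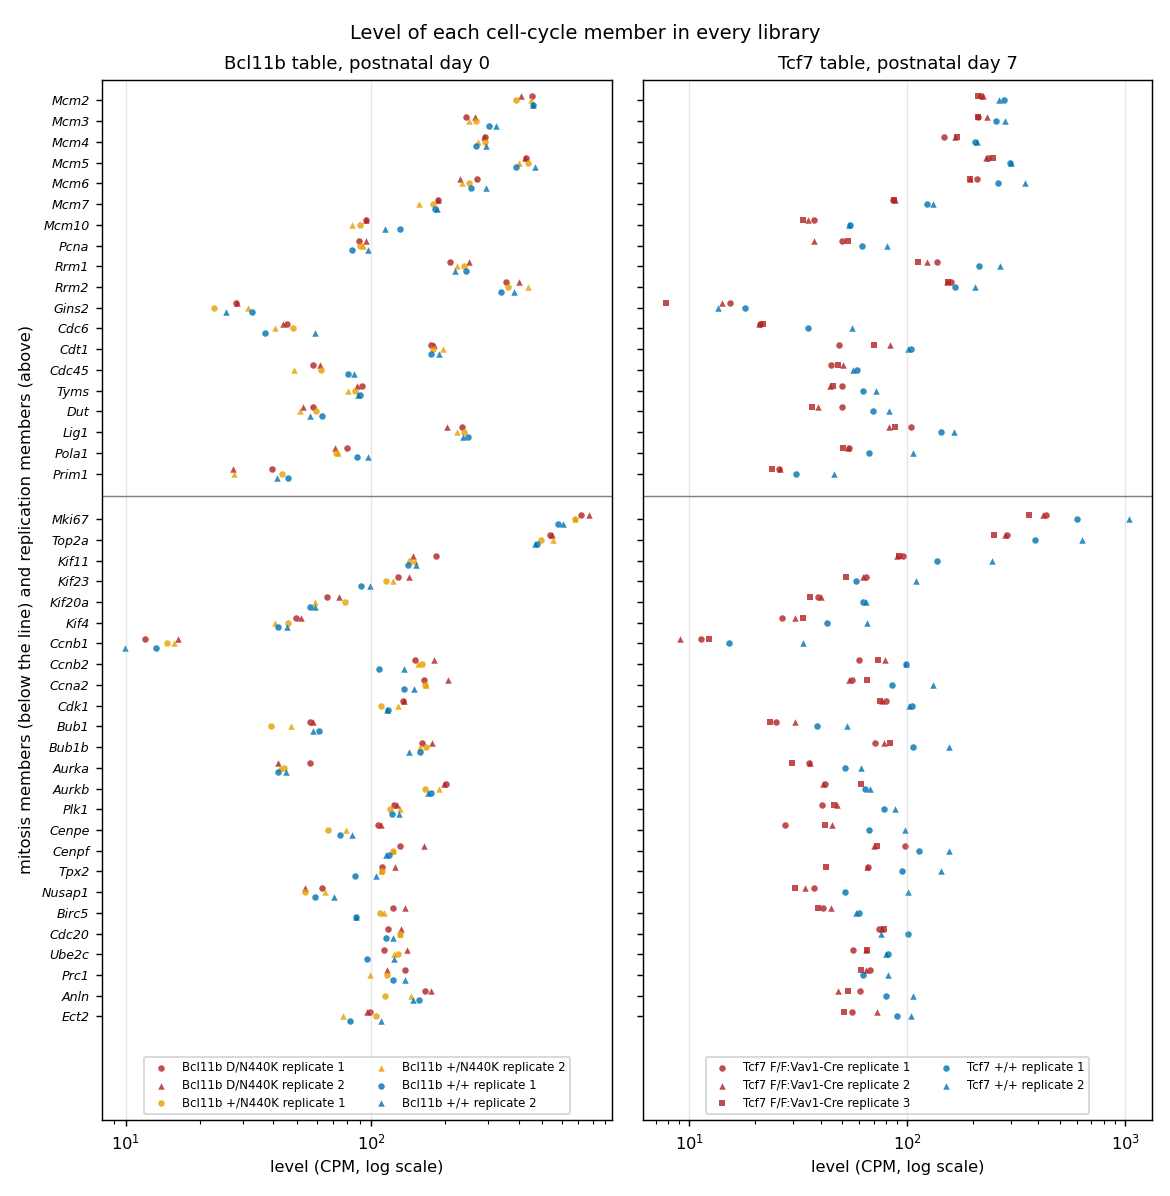
Level in CPM (log scale) of each of the 44 members in each of the 11 libraries, with replication members above the line and mitosis members below it. Symbols differ by replicate and colours by group; libraries labelled F/F:Vav1-Cre lie left of both Tcf7 +/+ libraries for 40 of 44 members, while the Bcl11b groups lie close together.

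The promoters of the 2 kinds of member differed in the motifs they hold, a property that the choice of members did not use. These 3 kinds of motif were searched on both strands, from 250 bases before to 50 bases after each RefSeq start: E2F-type (TTTCCCGC, TTTCGCGC, TTTGCCGC or TTTGGCGC), CHR (TTTGAA) and the NF-Y box (CCAAT), and matches could overlap. The RefSeq table (GRCm38.p6) held windows for 38 of 44 members, 17 replication and 21 mitosis genes. An E2F-type match was found in 8 of 17 replication members (47.1%) and 1 of 21 mitosis members (4.76%), against 2.605% of 27025 genes with a window. A CHR match was found in 16 of 21 mitosis members (76.2%) and 2 of 17 replication members (11.8%), against 20.2% of all genes. The NF-Y box was common in both, in 18 of 21 mitosis members (85.7%) and 12 of 17 replication members (70.6%), against 41.1% of all genes. A match is a run of letters and not evidence of binding, and no test was made of these shares.

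The replication members with an E2F-type match were Mcm3, Mcm5, Mcm6, Mcm7, Cdc6, Cdt1, Pola1 and Lig1, and the mitosis member was Cdk1. The mitosis members with no CHR match were Nusap1, Bub1, Cenpe, Birc5 and Ccnb1, and the replication members with a CHR match were Mcm2 and Cdc45. CHR and NF-Y box occurred together in 15 mitosis members and in both of those replication members. The 250 bases before the start are printed for 6 members, because they show each arrangement: E2F-type matches in Mcm6 and Cdc6, CHR with NF-Y boxes in Mki67, Top2a and Kif11, and all 3 motifs in Cdk1. Capitals mark the matches, those on the reverse strand included, and merge where matches overlap. They lie at chr1:128359706-128359955 on the minus strand (Mcm6), chr11:98907901-98908150 on the plus strand (Cdc6), chr7:135716380-135716629 on the minus strand (Mki67), chr11:99024190-99024439 on the minus strand (Top2a), chr19:37376132-37376381 on the plus strand (Kif11) and chr10:69352913-69353162 on the minus strand (Cdk1).
Mcm6: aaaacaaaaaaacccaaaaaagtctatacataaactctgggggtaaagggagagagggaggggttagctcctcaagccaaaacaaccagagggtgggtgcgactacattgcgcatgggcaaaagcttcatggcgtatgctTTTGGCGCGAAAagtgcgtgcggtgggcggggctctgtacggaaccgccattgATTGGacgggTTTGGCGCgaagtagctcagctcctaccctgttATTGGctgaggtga
Cdc6: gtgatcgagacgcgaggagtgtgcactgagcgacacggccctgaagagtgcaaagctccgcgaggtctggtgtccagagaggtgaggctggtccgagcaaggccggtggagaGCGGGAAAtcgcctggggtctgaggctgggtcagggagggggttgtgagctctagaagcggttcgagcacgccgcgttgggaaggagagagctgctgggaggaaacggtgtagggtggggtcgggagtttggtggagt
Mki67: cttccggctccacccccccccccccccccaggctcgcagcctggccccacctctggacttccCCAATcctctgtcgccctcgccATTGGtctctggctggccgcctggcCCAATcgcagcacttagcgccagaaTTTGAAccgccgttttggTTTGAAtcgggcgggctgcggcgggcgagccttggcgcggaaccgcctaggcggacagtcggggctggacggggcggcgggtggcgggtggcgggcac
Top2a: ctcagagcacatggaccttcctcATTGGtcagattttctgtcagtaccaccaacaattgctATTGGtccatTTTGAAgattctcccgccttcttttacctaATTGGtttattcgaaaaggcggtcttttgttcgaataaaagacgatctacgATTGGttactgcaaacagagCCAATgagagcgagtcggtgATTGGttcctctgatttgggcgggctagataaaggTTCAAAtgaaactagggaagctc
Kif11: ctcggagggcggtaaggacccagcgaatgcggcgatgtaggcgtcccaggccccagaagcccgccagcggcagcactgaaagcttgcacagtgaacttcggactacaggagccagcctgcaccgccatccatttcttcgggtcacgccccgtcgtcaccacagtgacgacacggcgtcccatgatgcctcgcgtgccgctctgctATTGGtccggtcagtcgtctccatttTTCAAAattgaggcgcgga
Cdk1: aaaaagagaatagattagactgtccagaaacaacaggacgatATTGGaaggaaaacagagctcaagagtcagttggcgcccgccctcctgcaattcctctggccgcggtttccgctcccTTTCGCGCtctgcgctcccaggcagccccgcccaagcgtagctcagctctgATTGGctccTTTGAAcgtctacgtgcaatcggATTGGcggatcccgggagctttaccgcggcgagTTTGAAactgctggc

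**Figure D2:**
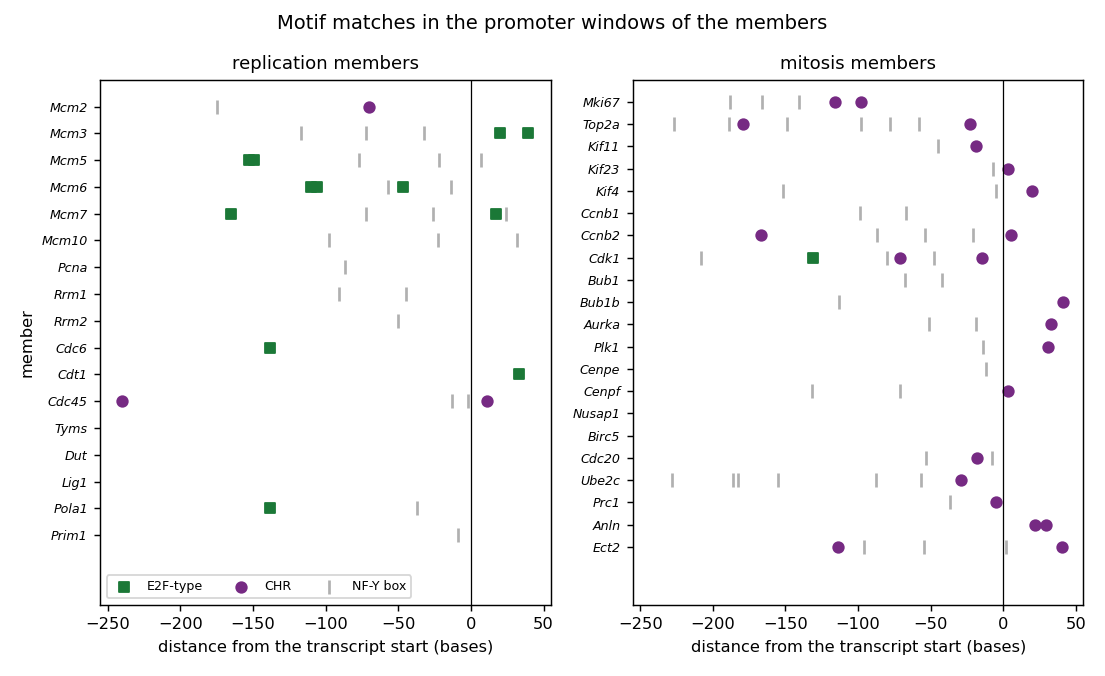
Distance from the transcript start (bases) of each motif match in the first listed window of 38 members, replication members at left and mitosis members at right. CHR matches of mitosis members had a median distance of -10 bases and E2F-type matches of replication members one of -108 bases; the Lig1 match lies in another of its windows and is not drawn.

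The Tcf7 comparison set the sorted thymocytes labelled F/F:Vav1-Cre against those labelled Tcf7 +/+ at day 7. The +/+ label names neither a floxed allele nor Cre, so effects of the allele, of Cre and of a Tcf7 deletion cannot be told apart. Cell-cycle members were lower in the libraries labelled F/F:Vav1-Cre: 27 of 44 fell and 0 rose at edgeR adjusted p (Benjamini-Hochberg) under 0.05, where 11.1% of all genes tested fell and 12.0% rose. All 44 log2 fold changes were below 0, between -1.17 (Nusap1) and -0.17 (Prc1), with a median of -0.658 against -0.00965 over all genes tested. An unadjusted edgeR p under 0.05 was found for 38 of 44 members and for 4310 of 12366 genes tested. For 40 of 44 members every library labelled F/F:Vav1-Cre lay below both Tcf7 +/+ libraries, which held for 24.1% of all genes tested. The 4 exceptions were Gins2, Kif23, Cdc20 and Prc1. Replication members fell in 10 of 19 cases, with a median log2 fold change of -0.585, and mitosis members in 17 of 25, with a median of -0.76. Of the 27 calls, 12 held under every alternative tried: Mki67, Top2a, Kif11, Tpx2, Plk1, Cenpe, Ccna2, Anln, Rrm1, Dut, Lig1 and Mcm6. Without Tcf7 +/+ replicate 2 the medians were -0.406 for replication and -0.533 for mitosis. With each library left out in turn they ran from -0.622 to -0.406 and from -0.971 to -0.533. The 2 +/+ libraries stood apart from each other, and such a pair cannot show which of them is unusual. Wherever leaving out a library leaves 1 in its group, here and in the Bcl11b groups, that library is assumed to vary like the others, and the p rests on their spread alone. Without F/F:Vav1-Cre replicate 3, 16 of the 27 calls were kept.

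Of the MCM helicase, 2 of 6 subunits fell and 4 did not pass the test. Mcm6 had 208, 193 and 193 CPM in libraries labelled F/F:Vav1-Cre, against 259.8 and 347 CPM in +/+ (log2 fold change -0.62 ± 0.14 SE, edgeR adjusted p = 0.003777). Mcm7 had 85.7, 88.1 and 86.8 CPM in libraries labelled F/F:Vav1-Cre, against 123 and 131 CPM in +/+ (log2 fold change -0.55 ± 0.147 SE, edgeR adjusted p = 0.01187). No library of one group overlapped the other for either gene. Mcm5 had 234, 230.5 and 248 CPM in libraries labelled F/F:Vav1-Cre, against 296 and 299.9 CPM in +/+, and did not pass (log2 fold change -0.32 ± 0.122 SE, edgeR adjusted p = 0.06429). Mcm2, Mcm3 and Mcm4 had log2 fold changes of -0.32, -0.29 and -0.35, again with every +/+ library above every library labelled F/F:Vav1-Cre, but with edgeR adjusted p of 0.06487 to 0.1037. Mcm7 shares 557 bases of exon with 4 other genes, so its count may include reads of theirs or lack some of its own.

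Among genes that license and fire origins, Cdc6, Cdt1 and Mcm10 fell. Cdc6, which helps load the helicase, had 21, 20.9 and 21.7 CPM in libraries labelled F/F:Vav1-Cre, against 34.9 and 55.8 CPM in +/+ (log2 fold change -1.09 ± 0.245 SE, edgeR adjusted p = 0.003368). Its 3 libraries labelled F/F:Vav1-Cre were within 1 CPM of each other, while the +/+ libraries lay far apart, and with +/+ replicate 2 left out Cdc6 did not pass (edgeR adjusted p = 0.05934). Cdt1, its partner in loading, had 48.5, 83.1 and 70.7 CPM in libraries labelled F/F:Vav1-Cre, against 104 and 101 CPM in +/+ (log2 fold change -0.59 ± 0.193 SE, edgeR adjusted p = 0.03647). Mcm10, which acts when the helicase is switched on, had 37.2, 35 and 33.4 CPM in libraries labelled F/F:Vav1-Cre, against 54.7 and 54.1 CPM in +/+ (log2 fold change -0.63 ± 0.196 SE, edgeR adjusted p = 0.02697). Both +/+ libraries were higher for Cdt1 and Mcm10, with 1 of the libraries labelled F/F:Vav1-Cre nearer to them for Cdt1. Cdc45, a part of the active helicase, and Gins2 of the GINS complex did not pass, at log2 fold changes of -0.26 and -0.37. Gins2 lies over exons of Gse1 on the opposite strand, and whether reads were counted by strand is unknown here. In all, 13 members overlap exons of another gene and 12 have a near-identical match of at least 200 bases. For Mcm7, Gins2, Lig1, Kif20a, Kif4 and Ccna2 a matching gene is one that overlaps, so these 2 counts share members. How reads shared between genes were counted is unknown here, so the counts may include reads of others or lack some of their own.

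At the replication fork, Lig1, Pola1 and Pcna fell. Lig1, the ligase that joins lagging strand fragments, had 104, 82.5 and 87.9 CPM in libraries labelled F/F:Vav1-Cre, against 143 and 164 CPM in +/+ (log2 fold change -0.76 ± 0.154 SE, edgeR adjusted p = 0.001634). Pola1, the catalytic subunit of the polymerase that starts each strand, had 54.2, 53.7 and 50.6 CPM in libraries labelled F/F:Vav1-Cre, against 67 and 106 CPM in +/+ (log2 fold change -0.72 ± 0.204 SE, edgeR adjusted p = 0.01665). Pcna, the sliding clamp, had 50.1, 37.3 and 53.4 CPM in libraries labelled F/F:Vav1-Cre, against 62 and 80.6 CPM in +/+ (log2 fold change -0.61 ± 0.208 SE, edgeR adjusted p = 0.04342), which failed in 7 of the alternatives tried. The groups did not overlap for any of the 3 genes. Prim1, the primase, did not pass, with a log2 fold change of -0.61 and an edgeR adjusted p of 0.07147.

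Of the enzymes that supply nucleotides, Rrm1 had the smallest p of all members. Rrm1, the large subunit of ribonucleotide reductase, had 137, 123 and 112 CPM in libraries labelled F/F:Vav1-Cre, against 212 and 268 CPM in +/+ (log2 fold change -0.96 ± 0.147 SE, edgeR adjusted p = 0.0001241). Rrm2, its small subunit, had 159, 151 and 154 CPM in libraries labelled F/F:Vav1-Cre, against 166 and 204 CPM in +/+, and did not pass (log2 fold change -0.26 ± 0.14 SE, edgeR adjusted p = 0.202). The 2 subunits of this enzyme thus had estimates of -0.96 and -0.26 on the log2 scale, a difference that was not tested. Dut, which clears dUTP, had 50.1, 39 and 36.7 CPM in libraries labelled F/F:Vav1-Cre, against 69.3 and 82.9 CPM in +/+ (log2 fold change -0.87 ± 0.199 SE, edgeR adjusted p = 0.003903). Tyms, which makes thymidylate, had a log2 fold change of -0.53 and an edgeR adjusted p of 0.05026. Part of its transcript is matched nearly identically by 19 genes, over at most 677 of 3884 bases, so its count is uncertain.

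Mki67 and Top2a, the markers most used for dividing cells, both fell. Mki67, which coats mitotic chromosomes, had 432, 419 and 363 CPM in libraries labelled F/F:Vav1-Cre, against 602 and 1044 CPM in +/+ (log2 fold change -1.03 ± 0.169 SE, edgeR adjusted p = 0.0002505). Top2a, which untangles DNA before division, had 287, 281 and 249 CPM in libraries labelled F/F:Vav1-Cre, against 384 and 635 CPM in +/+ (log2 fold change -0.90 ± 0.165 SE, edgeR adjusted p = 0.0006345). In both genes the 3 libraries labelled F/F:Vav1-Cre lay close together and below +/+ replicate 1, and +/+ replicate 2 was far above it.

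Of 7 spindle motors and microtubule proteins, 5 fell. Kif11, the motor that holds the spindle poles apart, had 95.4, 89.3 and 91.8 CPM in libraries labelled F/F:Vav1-Cre, against 137 and 244 CPM in +/+ (log2 fold change -1.05 ± 0.193 SE, edgeR adjusted p = 0.0006744). Tpx2, which activates Aurora A on the spindle, had 66.3, 65.5 and 42.3 CPM in libraries labelled F/F:Vav1-Cre, against 94.1 and 143 CPM in +/+ (log2 fold change -1.04 ± 0.213 SE, edgeR adjusted p = 0.001738). Nusap1, which binds spindle microtubules near chromosomes, had 37.2, 33.9 and 30.6 CPM in libraries labelled F/F:Vav1-Cre, against 51.8 and 100.3 CPM in +/+ (log2 fold change -1.17 ± 0.248 SE, edgeR adjusted p = 0.002228). For all 3 genes +/+ replicate 2 was the highest library, and when it was left out Nusap1 did not pass (edgeR adjusted p = 0.06287). Kif4, a chromosome-bound kinesin, had 26.7, 30.5 and 33.4 CPM in libraries labelled F/F:Vav1-Cre, against 42.8 and 65.4 CPM in +/+ (log2 fold change -0.83 ± 0.227 SE, edgeR adjusted p = 0.01311). Kif20a, a kinesin of the central spindle, had 38.8, 40.1 and 35.6 CPM in libraries labelled F/F:Vav1-Cre, against 62.5 and 64.8 CPM in +/+ (log2 fold change -0.74 ± 0.191 SE, edgeR adjusted p = 0.009143). Unlike the others, Kif20a had nearly equal values in the 2 +/+ libraries, and its exons overlap those of Cdc23 on the opposite strand. Kif23 had 64.7, 62.7 and 52.3 CPM in libraries labelled F/F:Vav1-Cre, against 58 and 109.9 CPM in +/+, and Prc1, which bundles central spindle microtubules, had 67.1, 64.4 and 61.2 CPM in libraries labelled F/F:Vav1-Cre, against 62.5 and 81.7 CPM in +/+. Both overlapped between groups and did not pass, at edgeR adjusted p of 0.1357 and 0.5549.

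Among cyclins, Ccna2 and Ccnb1 fell, and Ccnb2 and their kinase Cdk1 did not pass. Ccna2 had 55.8, 54.2 and 65.1 CPM in libraries labelled F/F:Vav1-Cre, against 85.1 and 132 CPM in +/+ (log2 fold change -0.89 ± 0.195 SE, edgeR adjusted p = 0.002954). Ccnb1 had 11.3, 9.04 and 12.2 CPM in libraries labelled F/F:Vav1-Cre, against 15.2 and 33.3 CPM in +/+ (log2 fold change -1.16 ± 0.342 SE, edgeR adjusted p = 0.02067), from few counts and with 4 genes nearly identical to part of its transcript (at most 1294 of 2489 bases). With +/+ replicate 2 left out it did not pass (edgeR adjusted p = 0.4689), and +/+ replicate 1 was close to the libraries labelled F/F:Vav1-Cre. Ccnb2 had 59.8, 79.1 and 73.4 CPM in libraries labelled F/F:Vav1-Cre, against 98.6 and 98.6 CPM in +/+ (log2 fold change -0.47 ± 0.168 SE, edgeR adjusted p = 0.05436). Cdk1 had 80.1, 76.3 and 75.1 CPM in libraries labelled F/F:Vav1-Cre, against 105 and 102 CPM in +/+ (log2 fold change -0.42 ± 0.155 SE, edgeR adjusted p = 0.05685). For both, the +/+ libraries were close to each other and above all the others.

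Of 5 mitotic kinases, 4 fell. Plk1, the Polo kinase, had 40.4, 47.5 and 46.2 CPM in libraries labelled F/F:Vav1-Cre, against 78.3 and 87.9 CPM in +/+ (log2 fold change -0.89 ± 0.183 SE, edgeR adjusted p = 0.00181). Bub1b, of the spindle checkpoint, had 71.2, 78 and 83.5 CPM in libraries labelled F/F:Vav1-Cre, against 106 and 155 CPM in +/+ (log2 fold change -0.75 ± 0.175 SE, edgeR adjusted p = 0.004632). Aurka, the Aurora kinase of the spindle poles, had 35.6, 35.6 and 29.5 CPM in libraries labelled F/F:Vav1-Cre, against 51.8 and 61.4 CPM in +/+ (log2 fold change -0.76 ± 0.204 SE, edgeR adjusted p = 0.01175). The groups did not overlap in any of these. Bub1, also of the checkpoint, had 25.1, 30.5 and 23.4 CPM in libraries labelled F/F:Vav1-Cre, against 38.3 and 53 CPM in +/+ (log2 fold change -0.79 ± 0.229 SE, edgeR adjusted p = 0.01884), and did not pass once +/+ replicate 2 was left out (edgeR adjusted p = 0.1722). Aurkb, the Aurora kinase of the chromosome passenger complex, did not pass, with a log2 fold change of -0.44 and an edgeR adjusted p of 0.1397.

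The kinetochore genes Cenpe and Cenpf fell. Cenpe, a motor that moves chromosomes to the spindle equator, had 27.5, 45.2 and 41.7 CPM in libraries labelled F/F:Vav1-Cre, against 66.5 and 97.5 CPM in +/+ (log2 fold change -1.08 ± 0.226 SE, edgeR adjusted p = 0.002078). Cenpf had 97.8, 70.6 and 72.9 CPM in libraries labelled F/F:Vav1-Cre, against 113 and 156 CPM in +/+ (log2 fold change -0.75 ± 0.182 SE, edgeR adjusted p = 0.005936). Birc5 (survivin), of the passenger complex, had 41.2, 44.6 and 38.9 CPM in libraries labelled F/F:Vav1-Cre, against 60.3 and 58.1 CPM in +/+, and did not pass (log2 fold change -0.51 ± 0.191 SE, edgeR adjusted p = 0.06521). No group overlapped the other for these 3 genes. Anln and Ect2, which build the cleavage furrow, fell: Anln had 60.6, 48 and 53.4 CPM in libraries labelled F/F:Vav1-Cre, against 79.5 and 106 CPM in +/+ (log2 fold change -0.79 ± 0.189 SE, edgeR adjusted p = 0.00536), and Ect2 had 55.8, 72.9 and 51.2 CPM in libraries labelled F/F:Vav1-Cre, against 89.6 and 104 CPM in +/+ (log2 fold change -0.68 ± 0.186 SE, edgeR adjusted p = 0.01265). Of the genes of mitotic exit, neither passed. Cdc20, an activator of the anaphase-promoting complex, had 74.4, 76.8 and 78.4 CPM in libraries labelled F/F:Vav1-Cre, against 101 and 76.1 CPM in +/+ (log2 fold change -0.21 ± 0.172 SE, edgeR adjusted p = 0.4294). Ube2c, the ubiquitin carrier of that complex, had 56.6, 65 and 65.7 CPM in libraries labelled F/F:Vav1-Cre, against 81.1 and 80 CPM in +/+ (log2 fold change -0.36 ± 0.172 SE, edgeR adjusted p = 0.1443). Cdc20 was lower in +/+ replicate 2 than in replicate 1, the reverse of most mitosis members.

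The 2 Tcf7 +/+ libraries differed in these genes themselves. On the log2(CPM + 1) scale, replicate 2 minus replicate 1 had a median of 0.457 over mitosis members, with 21 of 25 higher in replicate 2, and of 0.192 over replication members, with 14 of 19 higher, while the median over all genes tested was 0.000391. No other replicate pair had a median of mitosis members beyond 0.0978. Ccnb1, Nusap1, Kif23, Kif11 and Mki67 were among those far higher in replicate 2, while Birc5, Cdk1, Ccnb2, Aurkb and Kif20a were nearly equal. The difference ran with transcript length: Spearman's rho was 0.399 over the 44 members and 0.104 over 12363 genes, all from the same pair of libraries. The fold change of the Tcf7 comparison also ran with length among members (rho -0.413 over 44 members, -0.0476 over 12363 genes), and these libraries enter it. With offsets for transcript length and GC content, an alternative chosen after seeing the data, the medians were -0.513 for replication and -0.74 for mitosis, and 34 members fell.

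**Figure D3:**
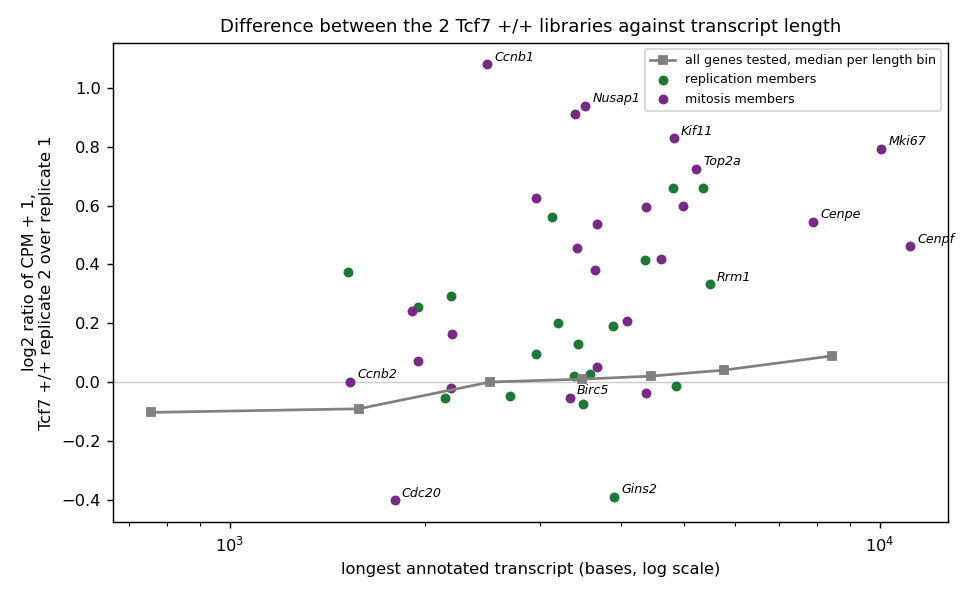
Log2 ratio of CPM + 1 of Tcf7 +/+ replicate 2 over replicate 1 for each member, against the length of its longest annotated transcript (bases, log scale), with the median of all genes tested per length bin in grey. Most mitosis members lie above the grey line, with a median of 0.457, and Cdc20 and Gins2 lie below it.

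Markers of other cell types moved with the Tcf7 comparison too. The 8 B lineage markers summed to 43.5 to 56.6 CPM in libraries labelled F/F:Vav1-Cre, against 151 to 158 CPM in +/+, and 5 of 6 tested fell. The 8 double-positive thymocyte markers summed to 446 to 451 CPM in libraries labelled F/F:Vav1-Cre, with Rag2 and Dntt at 0 in all 3, against 832 to 849 CPM in +/+ with none at 0. Of the 7 tested, 6 fell and Cd4 rose, averaging 351 CPM in libraries labelled F/F:Vav1-Cre and 201.5 CPM in +/+. Without Cd4 the other 7 markers summed to 80.1 to 110.2 CPM in libraries labelled F/F:Vav1-Cre, against 618 to 661 CPM in +/+. Of the 6 T and innate lymphoid markers, Zbtb16, Trdc and Cd3e fell (log2 fold changes -1.99, -1.56 and -1.30) and Id2 rose (0.70). The 8 myeloid markers ran the other way, at 1021 to 1158 CPM against 400.2 to 671 CPM in +/+, the lower of these in replicate 2, and 3 of 5 tested rose. The 5 mast and basophil markers were also higher, at 59.0 to 75.1 CPM against 20.9 to 22.5 CPM in +/+, with 3 of 3 tested called. Stroma markers summed to 317 to 366 CPM against 188 to 214 CPM in +/+, with 1 of 2 tested called higher. Erythroid markers stayed at 8.475 to 12.1 CPM against 9.02 CPM in both +/+ libraries. The part of all these markers' cells in the lower cell-cycle counts was not tested.

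The Bcl11b comparisons set the groups that carry N440K against +/+ and against each other at day 0. D/N440K differs from +/+ in both alleles, and from +/N440K by D in place of the + allele. Effects of N440K, of D and of the missing + allele in D/N440K thus cannot be told apart. Against +/+, 6 mitosis members rose in D/N440K and 1 replication member fell, where 6.10% of all genes tested rose and 6.31% fell. An unadjusted edgeR p under 0.05 was found for 12 of 44 members and 2462 of 10910 genes tested. These shares are near each other, so the 12 are no result about the members. Mitosis members had a median log2 fold change of 0.207, with 21 of 25 above 0, and replication members one of -0.085, with 14 of 19 below 0, while the median over all genes tested was 0.00139. Both D/N440K libraries were above both +/+ libraries for 15 of 25 mitosis members and 1 of 19 replication members, where 25.3% of all genes tested were. Without D/N440K replicate 2, edgeR kept 0 of the 7 calls, at adjusted p of 0.05147 (Mcm3) to 0.5511 (Ccna2), with a mitosis median of 0.193 and a replication median of -0.0328. Without +/+ replicate 1 it kept 3 and without +/+ replicate 2 it kept 4. DESeq2 called 1 member, Mki67.

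The members that rose came from several steps of mitosis. Mki67 had 718 and 772 CPM in D/N440K, 677 and 679 CPM in +/N440K and 581 and 608 CPM in +/+ (D/N440K versus +/+: log2 fold change 0.32 ± 0.0734 SE, edgeR adjusted p = 0.001506). Birc5 had 122 and 137 CPM in D/N440K, 108 and 114 CPM in +/N440K and 87 and 87.2 CPM in +/+ (log2 fold change 0.57 ± 0.14 SE, edgeR adjusted p = 0.003198). In both genes +/N440K lay between the other groups. Kif23, a motor of the central spindle, had 128 and 142 CPM in D/N440K, 115 and 122 CPM in +/N440K and 91 and 98.8 CPM in +/+ (log2 fold change 0.50 ± 0.137 SE, edgeR adjusted p = 0.008823). Ccnb2 had 151 and 180.2 CPM in D/N440K, 162 and 156 CPM in +/N440K and 107 and 136 CPM in +/+ (log2 fold change 0.42 ± 0.132 SE, edgeR adjusted p = 0.02728). Ccna2 had 164 and 207 CPM in D/N440K, 166 and 168 CPM in +/N440K and 136 and 149 CPM in +/+ (log2 fold change 0.36 ± 0.124 SE, edgeR adjusted p = 0.04741). In these 3 genes both libraries of D/N440K and of +/N440K were above both +/+ libraries. Cenpe had 107 and 109.9 CPM in D/N440K, 66.9 and 79 CPM in +/N440K and 74.7 and 83.8 CPM in +/+ (log2 fold change 0.44 ± 0.15 SE, edgeR adjusted p = 0.04308). Here +/N440K was with +/+, and only the D/N440K libraries were higher.

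Mitosis members that did not pass ranged from log2 fold changes of -0.15 (Nusap1) to 0.33 (Cenpf) in D/N440K against +/+. Top2a had 539 and 549 CPM in D/N440K, 493 and 551 CPM in +/N440K and 476 and 467 CPM in +/+, with both D/N440K libraries above both +/+ libraries (log2 fold change 0.21 ± 0.0799 SE, edgeR adjusted p = 0.08929). Kif11 had 184 and 149 CPM in D/N440K, 144 and 151 CPM in +/N440K and 141 and 152 CPM in +/+ and overlapped (log2 fold change 0.19 ± 0.125 SE, edgeR adjusted p = 0.4119). The kinases did not pass: Bub1b had 161 and 177 CPM in D/N440K, 167 and 159 CPM in +/N440K and 159 and 143 CPM in +/+, and Plk1 had 124 and 127 CPM in D/N440K, 120.0 and 131 CPM in +/N440K and 122 and 130.3 CPM in +/+, with log2 fold changes of 0.17 and -0.0091 against +/+. All Plk1 libraries of the 3 groups lay within 12 CPM of each other. The genes of mitotic exit, Cdc20 and Ube2c, had log2 fold changes of 0.062 and 0.17, and those of the cleavage furrow, Anln and Ect2, 0.17 and 0.018.

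Of replication members, Mcm3 of the helicase fell in D/N440K. It had 243 and 265 CPM in D/N440K, 268 and 252 CPM in +/N440K and 303 and 324 CPM in +/+ (log2 fold change -0.31 ± 0.0963 SE, edgeR adjusted p = 0.02505), with all 4 libraries that carry N440K below both +/+ libraries. Mcm5 had 429 and 425 CPM in D/N440K, 437 and 402 CPM in +/N440K and 392 and 466 CPM in +/+ and Mcm6 had 271 and 230.0 CPM in D/N440K, 251 and 236 CPM in +/N440K and 255 and 296 CPM in +/+, and for both D/N440K overlapped +/+. Cdc45 and Mcm10 were lower in both mutant groups, and passed the test in +/N440K alone. Cdc45 had 58.2 and 62.1 CPM in D/N440K, 62.8 and 48.4 CPM in +/N440K and 80.8 and 85.5 CPM in +/+ (+/N440K versus +/+: log2 fold change -0.57 ± 0.172 SE, edgeR adjusted p = 0.02583; D/N440K versus +/+: log2 fold change -0.47 ± 0.171 SE, edgeR adjusted p = 0.06407). Mcm10 had 95.1 and 95.7 CPM in D/N440K, 90.6 and 83.9 CPM in +/N440K and 131 and 114 CPM in +/+ (+/N440K versus +/+: log2 fold change -0.47 ± 0.141 SE, edgeR adjusted p = 0.02257; D/N440K versus +/+: log2 fold change -0.35 ± 0.14 SE, edgeR adjusted p = 0.1019). For both genes no mutant library reached a +/+ library, and the difference between the mutant groups did not pass (edgeR adjusted p = 0.9773 and 0.945). Cdc45 shares 209 bases of exon with Ufd1 on the opposite strand. Lig1 had 235 and 205 CPM in D/N440K, 239 and 225 CPM in +/N440K and 249 and 237 CPM in +/+, Cdt1 had 176 and 181 CPM in D/N440K, 179.5 and 196 CPM in +/N440K and 176 and 189 CPM in +/+, Cdc6 had 45.4 and 43.8 CPM in D/N440K, 48.1 and 40.5 CPM in +/N440K and 36.8 and 59 CPM in +/+ and Rrm2 had 355 and 401 CPM in D/N440K, 363 and 436 CPM in +/N440K and 339 and 384 CPM in +/+. None of these 4 passed, and their D/N440K log2 fold changes were -0.14, -0.039, -0.13 and 0.055. Rrm1, which fell in the Tcf7 comparison, had 209 and 250.4 CPM in D/N440K, 239 and 224 CPM in +/N440K and 244 and 220.0 CPM in +/+, with a log2 fold change of -0.018. The other replication members, Mcm2, Mcm4, Mcm7, Pola1, Pcna, Prim1, Dut, Tyms and Gins2, did not pass, with D/N440K log2 fold changes between -0.36 (Prim1) and 0.037 (Mcm4).

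In +/N440K against +/+, 0 members rose and 2 fell (4.55%), Cdc45 and Mcm10, where 4.79% of all genes tested rose and 5.30% fell. An unadjusted edgeR p under 0.05 was found for 9 of 44 members and 2233 of 10910 genes tested. Members that fell or had such a p were thus near the shares of all genes, so those counts are no result about the members. Neither call held with DESeq2, without the filter on low counts, or without +/+ replicate 1 or +/N440K replicate 2, and that of Cdc45 did not hold without +/+ replicate 2. Without +/N440K replicate 2 the replication median was -0.0255. Replication members had a median log2 fold change of -0.106, with 14 of 19 below 0, and mitosis members one of 0.0823, with 16 of 25 above 0, against 0.00174 over all genes tested. The comparisons with +/+ share its libraries, so their values for 1 gene are not independent. Birc5, Ccnb2, Kif23 and Mki67 had log2 fold changes of 0.35, 0.37, 0.31 and 0.19 in +/N440K, with edgeR adjusted p of 0.06871 to 0.1736. Bub1 was the lowest mitosis member there, with 56.5 and 58 CPM in D/N440K, 39.2 and 47.4 CPM in +/N440K and 61.4 and 58.1 CPM in +/+ (+/N440K versus +/+: log2 fold change -0.47 ± 0.196 SE, edgeR adjusted p = 0.1362).

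Between the mutant groups, D/N440K against +/N440K, edgeR called 0 members, where 0.284% of all genes tested rose and 0.247% fell, and DESeq2 also called 0. Unadjusted edgeR p was under 0.05 for 3 of 44 members and 851 of 10910 genes tested, so this count is no result about the members. All 3 were higher in D/N440K: Cenpe (log2 fold change 0.58 ± 0.152 SE, edgeR adjusted p = 0.06489), Anln (log2 fold change 0.41 ± 0.127 SE, edgeR adjusted p = 0.1775) and Bub1 (log2 fold change 0.41 ± 0.198 SE, edgeR adjusted p = 0.6116). Anln had 166 and 176 CPM in D/N440K, 114 and 145 CPM in +/N440K and 158 and 148 CPM in +/+. Its +/N440K libraries were below all libraries of both other groups. The median log2 fold change was 0.144 over mitosis members, with 21 of 25 above 0, and 0.0247 over replication members. The mean of +/N440K lay between those of D/N440K and +/+ for 15 of 25 mitosis members and 6 of 19 replication members. The share of all genes tested with this order was not taken, so these counts are no result about the members.

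**Figure D4:**
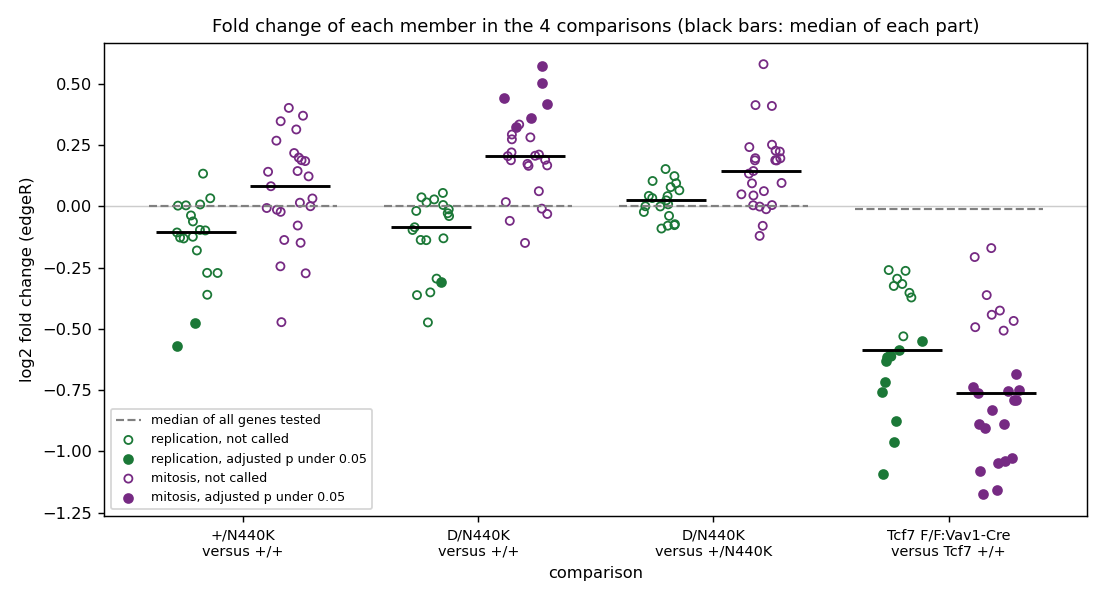
Log2 fold change (edgeR) of each member in the 4 comparisons, replication members in green and mitosis members in purple, filled where the edgeR adjusted p was under 0.05. Black bars are the medians of each kind and dashed lines the median of all genes tested; all 44 points lie below 0 in the Tcf7 comparison, and the mitosis median lies above the replication median in the 3 Bcl11b comparisons.

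The share of all counts that fell on each kind of member shows the same groups without any fitted model, and its intervals (Clopper-Pearson, 95%) cover counting error only. Mitosis members took 0.384% and 0.403% of counts in D/N440K, 0.354% and 0.361% in +/N440K, and 0.325% and 0.347% in +/+. By these values the 3 groups did not overlap and stood in that order. The intervals of +/N440K replicate 1 (0.3435% to 0.3644%) and +/+ replicate 2 (0.3369% to 0.358%) did overlap. Such a sum weighs members by their counts: Mki67 and Top2a gave 838 and 629 of the 4574 mitosis counts of D/N440K replicate 1. In +/N440K replicate 1 Mki67 and Top2a gave 830 and 604 of 4410 mitosis counts, in a library of 1246272 counts. In +/+ replicate 2 they gave 732 and 562 of 4204 mitosis counts, in a library of 1210364 counts. With these 2 genes taken out, the share of +/N440K replicate 1 was below that of +/+ replicate 2. Those groups then overlapped, while the D/N440K libraries stayed highest, so the full order is that of the sum alone. By single member, both +/N440K libraries were above both +/+ libraries for 12 of 25 mitosis members and below them for 3. Over all 10910 genes tested, 2623 were above in this way and 2593 below. Replication members took 0.337% and 0.333% in D/N440K, 0.336% and 0.329% in +/N440K, and 0.344% and 0.370% in +/+. By these values the mutant groups overlapped each other and lay below +/+. The intervals of D/N440K replicate 1 (0.3264% to 0.3473%) and +/+ replicate 1 (0.3329% to 0.356%) did overlap. Counts on mitosis members per count on replication members were 1.14 and 1.21 in D/N440K, 1.05 and 1.10 in +/N440K, and 0.943 and 0.939 in +/+.

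In the Tcf7 table the shares of both kinds were lower in the libraries labelled F/F:Vav1-Cre. Mitosis members took 0.189%, 0.194% and 0.179% of counts there, against 0.275% and 0.392% in +/+. Replication members took 0.185%, 0.187% and 0.182%, against 0.252% and 0.280% in +/+. Neither share overlapped between groups, and the 3 libraries labelled F/F:Vav1-Cre spanned less than the 2 +/+ libraries. Mitosis counts per replication count were 1.03, 1.04 and 0.981, against 1.09 and 1.40 in +/+. These shares and ratios were not tested.

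**Figure D5:**
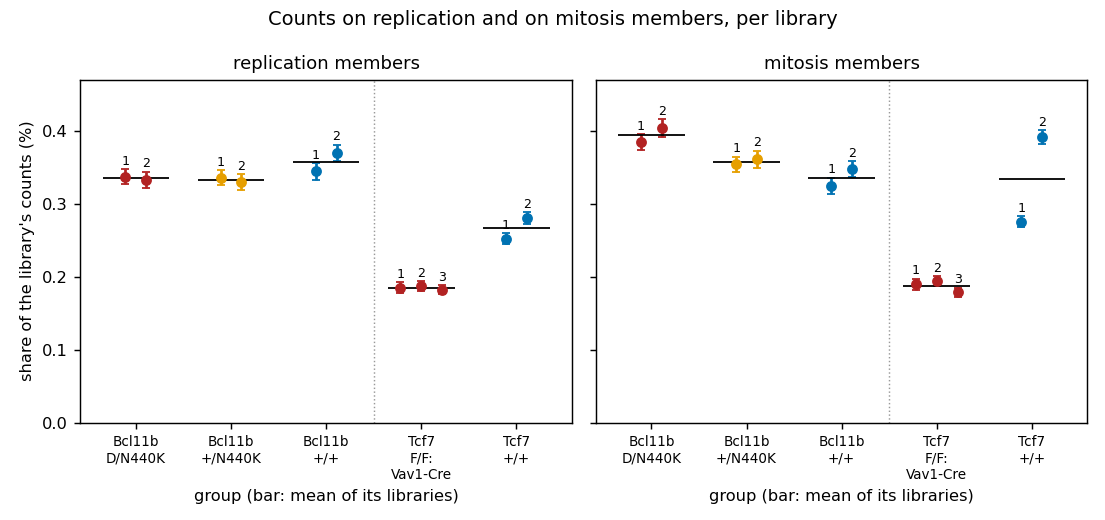
Share of each library's counts (%) on replication members (left) and mitosis members (right), with 95% Clopper-Pearson intervals and replicate numbers above the points; bars are group means. Tcf7 +/+ replicate 2 is 0.392% for mitosis members against 0.275% in replicate 1, and D/N440K libraries are above the other Bcl11b groups for mitosis members.

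Markers of other cell types moved with the Bcl11b groups. Myeloid markers summed to 314 and 324 CPM in D/N440K, 229 and 269.5 CPM in +/N440K, and 127 and 169 CPM in +/+, in the same order as the mitosis shares, and 3 of 5 tested rose in D/N440K against +/+. Erythroid markers summed to 92.5 and 123 CPM in D/N440K, 28.6 and 12.8 CPM in +/N440K, and 62.4 and 29.1 CPM in +/+, and 3 of 4 tested rose in D/N440K against +/+. Double-positive markers summed to 47.1 and 57.0 CPM in D/N440K, 54.7 and 58.2 CPM in +/N440K, and 519 and 526 CPM in +/+, with Dntt at 0 in all 4 libraries that carry N440K, and 6 of 6 tested fell in each mutant group against +/+. B lineage markers summed to 11.99 and 9.16 CPM in D/N440K, 13.9 and 21.7 CPM in +/N440K, and 29.7 and 35.7 CPM in +/+, with 3 to 6 of 8 at 0 in each library. Of the 6 T and innate lymphoid markers, Cd3e, Trdc and Zbtb16 fell and Id2 and Il2rb rose in both mutant groups, with log2 fold changes of -1.11, -1.30, -0.55, 1.00 and 0.46 in D/N440K against +/+. Their part in the cell-cycle values was not tested.

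Genes of the same processes outside the listed members were set beside them, from lists written with earlier results known. In the Tcf7 comparison, 24 of 46 other mitosis genes tested fell and 0 rose, where 11.1% of all genes tested fell and 12.0% rose, with a median log2 fold change of -0.681. The first by p were Knl1 of the kinetochore (-1.29 ± 0.212 SE, edgeR adjusted p = 0.0002528), the kinesins Kif20b (-1.33 ± 0.231 SE, edgeR adjusted p = 0.0004032) and Kif15 (-0.99 ± 0.181 SE, edgeR adjusted p = 0.0006515), and Cep55 of abscission (-1.22 ± 0.247 SE, edgeR adjusted p = 0.001548). Of 28 other replication genes 9 fell and 0 rose, against the same shares of all genes, with a median of -0.395. They were led by Orc2 (-1.05 ± 0.237 SE, edgeR adjusted p = 0.003514) and Orc5 (-1.15 ± 0.281 SE, edgeR adjusted p = 0.006061) of the origin recognition complex, Uhrf1, which maintains DNA methylation (-0.62 ± 0.141 SE, edgeR adjusted p = 0.003749), and Rpa1, which coats single strands (-0.63 ± 0.16 SE, edgeR adjusted p = 0.008101). In D/N440K against +/+, 2 of 47 other mitosis genes rose, no larger a share than the 6.10% of all genes tested: the spindle genes Aspm (0.44 ± 0.124 SE, edgeR adjusted p = 0.01129) and Ckap2l (0.53 ± 0.177 SE, edgeR adjusted p = 0.03959), and 0 of 28 other replication genes were called, with medians of 0.177 and -0.0713. In +/N440K against +/+ and in D/N440K against +/N440K, 0 genes of either list were called.

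The list of cell-cycle regulators held cyclins, E2F and pocket proteins, Cdc25 phosphatases, Wee1, Myc and MuvB genes among others. Of 34 tested, 12 fell and 2 rose in libraries labelled F/F:Vav1-Cre, where 11.1% of all genes tested fell and 12.0% rose, with a median log2 fold change of -0.406. Myc, a growth factor response gene, averaged 42.0 CPM in libraries labelled F/F:Vav1-Cre and 146 CPM in +/+ (log2 fold change -1.80 ± 0.167 SE, edgeR adjusted p = 4.716e-07). Cdc25b, a phosphatase that activates cyclin-dependent kinase at the entry into mitosis, averaged 69.2 CPM in libraries labelled F/F:Vav1-Cre and 162 CPM in +/+ (-1.22 ± 0.157 SE, edgeR adjusted p = 2.05e-05). E2f2, an activating E2F, averaged 47.9 CPM in libraries labelled F/F:Vav1-Cre and 123 CPM in +/+ (-1.35 ± 0.179 SE, edgeR adjusted p = 2.711e-05). Wee1 averaged 35.1 CPM in libraries labelled F/F:Vav1-Cre and 73.0 CPM in +/+ (-1.05 ± 0.201 SE, edgeR adjusted p = 0.000939). The G1/S cyclin Ccne1 averaged 12.4 CPM in libraries labelled F/F:Vav1-Cre and 31.3 CPM in +/+ (-1.30 ± 0.278 SE, edgeR adjusted p = 0.002296). The others that fell were Gmnn (-1.03), Cdk4 (-0.50), Rb1 (-0.56), Ccnd2 (-0.37), E2f8 (-0.64), Lin9 (-0.68) and Ccne2 (-0.87). The 2 that rose are a smaller share than that of all genes. Mycn averaged 40.0 CPM in libraries labelled F/F:Vav1-Cre and 19.4 CPM in +/+ (1.04 ± 0.269 SE, edgeR adjusted p = 0.009129), opposite in direction to Myc, and the pocket protein gene Rbl2 also rose (0.43 ± 0.133 SE, edgeR adjusted p = 0.02861). Of 4 CDK inhibitors tested, Cdkn1a rose, at 33.5 CPM in libraries labelled F/F:Vav1-Cre and 14.1 CPM in +/+ (1.25 ± 0.413 SE, edgeR adjusted p = 0.03706). Mybl2, which encodes B-Myb, averaged 21.1 CPM in libraries labelled F/F:Vav1-Cre and 36.6 CPM in +/+, and did not pass (-0.76 ± 0.291 SE, edgeR adjusted p = 0.06728). Foxm1 and E2f1 did not pass either, at log2 fold changes of -0.20 ± 0.155 SE and 0.26 ± 0.214 SE.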

How the data were processed

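The 11 libraries were grouped by their titles. Whole-number counts per Ensembl gene and the authors' CPM were taken from the deposited tables. The submitters' processing notes name the mm10 (GRCm38) build, STAR 2.7.3a, HTSeq 0.11.2, edgeR, fastp 0.20.0, Picard 2.21.1 and SAMtools 1.9. The CPM that the authors deposited are counts over library total and TMM factor, and 100% gave back whole counts within 0.001.

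The members and lists were chosen with earlier results of these data known. Counts of each table were filtered (filterByExpr, minimum count 10), scaled by TMM and fitted with edgeR 4.0.16 (R 4.3.3), one coefficient per group, two-sided, with Benjamini-Hochberg adjustment over all genes tested and calls under 0.05. An SE is the log2 fold change over the root of the test's F. Alternatives used RLE, no filter, DESeq2 1.42.0, limma 3.58.1 on log2(CPM + 1), a replicate block, only the groups compared, each library left out, and length and GC offsets. Tested on simulated data with 200 changed genes, the model recovered 74% of 2-fold changes for D/N440K versus +/+ (10648 genes) and 75% for the Tcf7 comparison (12081 genes), with 9.52% of calls false in D/N440K versus +/+ and 3.89% in the Tcf7 comparison. The first of these false shares is above the threshold of 0.05. Recovery of changes below 2-fold was not scored, and all members in D/N440K versus +/+ changed by less (log2 fold changes -0.473 to 0.571). Exon overlaps used GENCODE M21, near-identical copies (95% over at least 200 bases) blastn 2.17.0, and promoters RefSeq. Members called in any comparison, and per role the highest and most changed, are given in full, and the others by fewer values. Figures used Python 3.11.15 and matplotlib 3.10.9.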

Additional observations from a re-analysis of the deposited data

How the results depend on the processing

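RLE normalization, limma on the authors' CPM and only the groups compared left the member counts within 1.5 times of those reported. Called members in +/N440K versus +/+ numbered 0 with no filter on low counts and 0 with DESeq2, and 0 to 2 with 1 library left out. In D/N440K versus +/+ DESeq2 called 1, and leaving out a library gave 0 to 6: 3 without +/+ replicate 1, 4 without +/+ replicate 2 and 0 without D/N440K replicate 2. In D/N440K versus +/N440K leaving out a library gave 0 to 1. In the Tcf7 comparison no filter gave 16, and leaving out a library 16 to 35. Medians of replication members with 1 library left out ran from -0.143 to -0.0255 in +/N440K versus +/+, -0.156 to -0.0328 in D/N440K versus +/+, -0.00921 to 0.0853 in D/N440K versus +/N440K and -0.622 to -0.406 in the Tcf7 comparison, where length and GC offsets gave -0.513. Those of mitosis members ran from 0.052 to 0.0852, 0.193 to 0.246, 0.099 to 0.169 and -0.971 to -0.533 in the same order, and the cause was not tested. The replication median of D/N440K versus +/N440K thus changed sign, without +/N440K replicate 2. For 37 pairs of a member and a comparison, the calls and Ube2c in the Tcf7 comparison, 315 alternatives kept the result on its side of the threshold, 91 lost a call and 1 gained one (Ube2c with length and GC offsets, edgeR adjusted p = 0.01183), and no direction turned. Members with no call were not followed one by one: 34 fell in the Tcf7 comparison with those offsets, 26 of them among the 27.

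Replicate numbers did not pair the libraries: correlations of replicate differences between groups were -0.0325 to 0.0112. With a replicate block, members called were 2, 7, 0 and 21, the last against 27 in the Tcf7 comparison, where Aurka, Bub1, Ect2, Kif20a, Mcm7 and Mcm10 lost their calls. Over all genes, DESeq2 called 357 against 1101 in +/N440K versus +/+, 528 against 1353 in D/N440K versus +/+ and 4 against 58 in D/N440K versus +/N440K, where the block gave 37 and no filter 91. In the Tcf7 comparison no filter gave 1606 against 2863, and leaving out a library 1700 to 4612; in the others, leaving out a library gave 726 to 945, 924 to 1007 and 25 to 63. Ccnb1 and Gins2, with 12 to 59 and 14 to 33 counts per library, are the members that depth limits most.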

Other observations

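Of 35 cell-cycle regulators tested in D/N440K versus +/+, 2 rose and 3 fell, near the 6.10% and 6.31% of all genes tested that did, so these counts are no result about the list. Ccnd2, a D-type cyclin, averaged 832 CPM in D/N440K and 653 CPM in +/+ (log2 fold change 0.35 ± 0.0721 SE, edgeR adjusted p = 0.0004301), and E2f7, an E2F repressor, averaged 85.9 CPM in D/N440K and 61.0 CPM in +/+ (0.49 ± 0.168 SE, edgeR adjusted p = 0.04923). In the same comparison Cdk2 averaged 64.9 CPM in D/N440K and 105.0 CPM in +/+ (-0.68 ± 0.159 SE, edgeR adjusted p = 0.002048), Ccnd1 30.4 CPM in D/N440K and 57.4 CPM in +/+ (-0.87 ± 0.255 SE, edgeR adjusted p = 0.01597), and E2f3 55.9 CPM in D/N440K and 85.6 CPM in +/+ (-0.59 ± 0.176 SE, edgeR adjusted p = 0.01852). In +/N440K versus +/+ 2 rose and 2 fell, where 4.79% of all genes tested rose and 5.30% fell: Ccnd2 (0.22 ± 0.0725 SE) and E2f7 (0.54 ± 0.165 SE), both higher, and Ccnd1 (-1.20 ± 0.266 SE) and Cdk2 (-0.52 ± 0.154 SE), both lower. Of the CDK inhibitors, 0 of 4 tested were called in any Bcl11b comparison with edgeR, and 0 of 35 regulators in D/N440K versus +/N440K.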
